A study of Mus musculus with 10 samples.

Results

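Microglia are the resident macrophages of the brain, and this account follows 10 of their genes across 5 groups of hippocampal arrays: Aif1, Csf1r, Trem2, Laptm5, Fcrls, Cx3cr1, P2ry12, Tyrobp, C1qa and Cd68. Every probe set that the platform annotation gives to one of these symbols was taken, which made 18 probe sets of 45037 without controls, and 10 genes of 18193 with a probe set of their own. Of the 18, 16 passed a filter on dim probe sets that kept 27023 in all, and each of the 10 genes had at least 1 among them. The probe sets left out as dim were 1421226_at of Trem2 and 1459841_x_at of Laptm5.

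Total RNA came from hippocampi of mice aged 3 weeks, pooled from 3 to 4 animals per array, with 2 arrays per group named replicate 1 and replicate 2. The A-CREB mice were TetO-A-CREB-95 animals on a C57BL6 F1/J background given saline, 14 mg/kg kainate or 18 mg/kg kainate. The wild-type (WT) mice were C57BL6 F1/J, with the strain given for one array of each WT group, and received saline or 14 mg/kg kainate. No WT group at 18 mg/kg is analysed here, so that dose has no genotype comparison. A-CREB is a dominant-negative inhibitor of the transcription factor CREB, here behind a tetracycline operator in the line numbered 95; the labels do not name the promoter that drives it. Kainate is a glutamate receptor agonist that provokes seizures, and the labels do not give the interval between injection and tissue collection, so no kainate value here can be placed in time. In all, 14 WT and 20 A-CREB mice were pooled, so the errors describe the spread between pools, and with so few arrays the values are not precise.

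Microglia survive through Csf1r, the receptor for the growth factors CSF1 and IL-34, and survey neurons through receptors such as P2ry12, which senses nucleotides, and Cx3cr1, which binds the neuronal chemokine fractalkine. Trem2, a receptor for lipids and lipoproteins, signals through the adaptor Tyrobp, also called DAP12. Microglia also make the complement component C1q, which tags synapses and debris, and carry a large lysosomal system. In hippocampus they are known for pruning synapses during postnatal weeks and for changing their state after seizures or neuronal damage.

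Transcript starts of 7 members were in the RefSeq promoter table (GRCm38.p6), which had no entry for Csf1r, Tyrobp and C1qa. In the 250 bases before the start, 3 of the 7 held GGAAGT, the core that PU.1 (the product of Spi1, a factor that specifies macrophages) and other ETS factors recognise, on either strand. Over all 32851 promoters of that length the share was 19.7%. The cAMP response element TGACGTCA, the site CREB binds, stood in 0 of the 7, against 1.55% of all promoters, and its core TGACG, which lies within the full element and was counted on either strand, in 2 of the 7, against 17.8%. A match is a description of these letters and not a site. A start in that table can lie within the gene as the RefSeq gene table bounds it: 250 of the 250 bases of the Laptm5 window, 241 of the Fcrls window and 31 of the Aif1 window lie inside the gene, and 0 of the other four. The windows of the 5 members with a match are printed because they show which of the genes have either motif next to a listed start. Capitals mark GGAAGT or its complement ACTTCC in the first 3, and CGTCA, the complement of TGACG, in the other two.
P2ry12, chr3:59262986-59263235, minus strand: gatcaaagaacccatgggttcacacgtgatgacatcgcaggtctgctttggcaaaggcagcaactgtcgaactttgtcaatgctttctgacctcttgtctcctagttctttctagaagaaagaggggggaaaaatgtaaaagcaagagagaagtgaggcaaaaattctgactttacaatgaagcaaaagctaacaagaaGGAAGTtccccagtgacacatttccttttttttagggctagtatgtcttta
Fcrls, chr3:87263525-87263774, minus strand: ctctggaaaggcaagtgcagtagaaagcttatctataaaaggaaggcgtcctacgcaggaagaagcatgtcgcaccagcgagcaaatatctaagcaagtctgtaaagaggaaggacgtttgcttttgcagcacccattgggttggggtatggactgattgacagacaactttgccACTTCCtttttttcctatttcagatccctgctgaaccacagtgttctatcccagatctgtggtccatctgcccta
Laptm5, chr4:130913066-130913315, plus strand: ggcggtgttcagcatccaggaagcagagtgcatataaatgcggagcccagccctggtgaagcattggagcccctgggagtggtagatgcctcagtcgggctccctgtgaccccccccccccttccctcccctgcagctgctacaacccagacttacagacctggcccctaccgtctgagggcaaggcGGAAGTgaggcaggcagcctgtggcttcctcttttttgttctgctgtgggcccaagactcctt
Cd68, chr11:69666171-69666420, minus strand: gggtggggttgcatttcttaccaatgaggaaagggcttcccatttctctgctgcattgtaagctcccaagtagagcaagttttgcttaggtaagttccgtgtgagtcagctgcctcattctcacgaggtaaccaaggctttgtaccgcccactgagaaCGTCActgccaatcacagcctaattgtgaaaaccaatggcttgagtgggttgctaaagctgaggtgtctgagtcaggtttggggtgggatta
Trem2, chr17:48346151-48346400, plus strand: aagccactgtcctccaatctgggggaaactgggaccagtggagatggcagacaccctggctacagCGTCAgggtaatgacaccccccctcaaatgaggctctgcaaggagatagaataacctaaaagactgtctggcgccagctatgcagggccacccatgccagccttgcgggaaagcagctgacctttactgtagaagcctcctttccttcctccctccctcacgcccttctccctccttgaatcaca
The left end of the match lay 51 bases before the listed start in P2ry12, 75 in Fcrls and 63 in Laptm5. It lay 92 bases before the start in Cd68 and 185 in Trem2.

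Values are MAS5 signals on a linear scale, with each array scaled by the depositors to the same trimmed mean. Differences are on the scale log2(signal + 22), which lowers the fold of dim probe sets, and a limma fit over all 10 arrays and all 27023 probe sets gave standard errors (SE) and p-values adjusted by Benjamini-Hochberg, with a threshold of 0.05. Replicate 1 arrays had median signals of 94.5 to 106, and replicate 2 arrays of 134 to 152. Arrays of the same number deviated together, so each A-CREB array was also set against the WT array of the same treatment and number. In bulk tissue, fewer cells of a type and less RNA per cell cannot be told apart. Of 8 markers of hippocampal neurons, 8 passed the filter.

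The microglia genes lay mostly above WT in A-CREB hippocampi, with averaged folds of 1.11 (Cx3cr1) to 2.44 (Trem2) by the brightest probe set of each gene, both of which depended on single arrays, and no probe set of theirs passed the test. The members were chosen with earlier results of these data known, and they varied together over the arrays. Counts set against all probe sets, here and below, therefore describe the members and are not a test of them as a group. Averaged over saline and 14 mg/kg, 15 of 16 probe sets lay above 0, against 49.4% of all probe sets tested. Their median was 0.36, against -0.00 over all probe sets tested. By limma 0 of 16 were called, against 0.0037% of all probe sets (1 of 27023), and every member's adjusted p rounded to 1.0. At an unadjusted p under 0.05 there were 6 of 16, all higher in A-CREB and of Trem2, Aif1, Cd68, Csf1r, Tyrobp and C1qa, against 1.76% of all probe sets in either direction. With the replicate number as a block, still 0 of 16 were called, against 0.0074%, the smallest adjusted p being 0.714, and 10 of 16 had an unadjusted p under 0.05 and were higher, against 3.35%. The difference was above 0 in 4 of 4 pairs for 7 of 16 probe sets, against 7.4% of all probe sets, and below 0 in 4 of 4 pairs for 0 of 16, against 7.67%. These 7 belonged to Aif1, Csf1r, Laptm5 (2 probe sets), Cx3cr1, C1qa and Cd68.

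**Figure D1:**
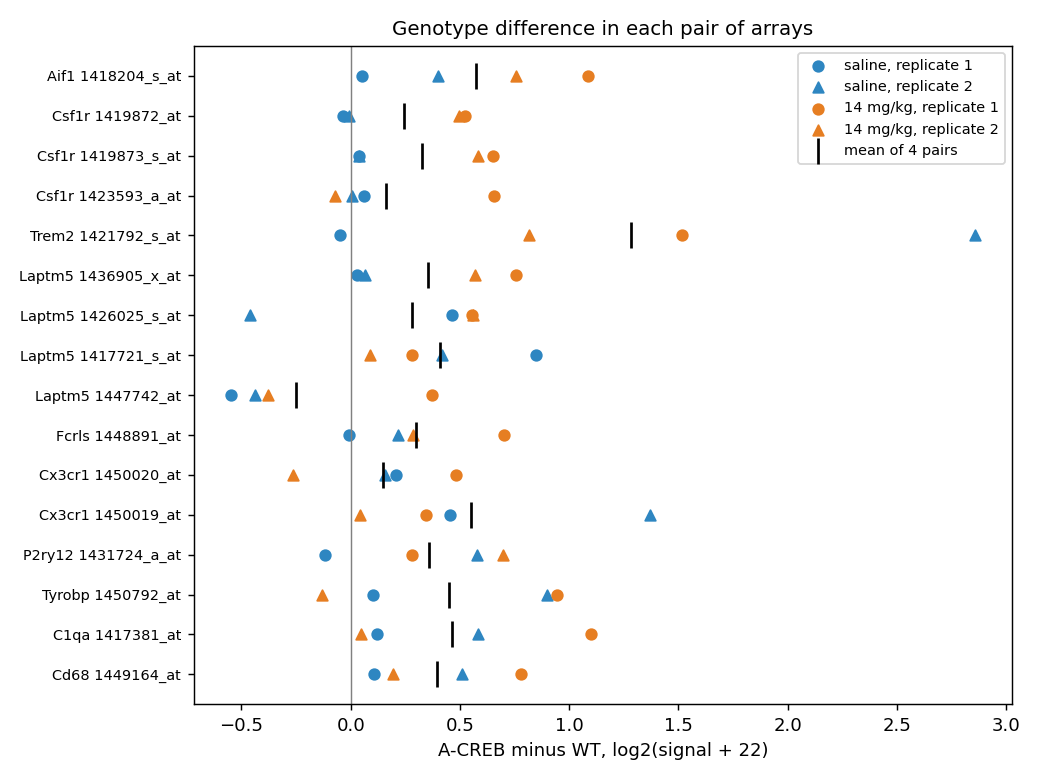
Each row is 1 of the 16 member probe sets and each point the A-CREB minus WT difference in log2(signal + 22) for a pair of arrays of the same treatment and replicate number; the black tick is the mean of 4 pairs. Points lie mostly to the right of 0, the first saline pair lies near 0 for many probe sets, and Trem2 has the widest spread, up to 2.86.

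The pairs did not contribute alike. The median over the 16 probe sets was 0.06 in saline pair 1, where 11 lay above 0, against 49.4% of all probe sets tested. It was 0.31 in saline pair 2, with 13 above 0, against 48.3%. After 14 mg/kg it was 0.65 in pair 1, with 16 of 16 above 0, against 51.5%, and 0.24 in pair 2, with 12 above 0, against 48.5%. The medians over all probe sets tested were between -0.01 and 0.01 in the 4 pairs.

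After saline the members' median difference was 0.20 and 13 of 16 lay above 0, against 48.9% of all probe sets. Limma called 0 of 16, as it did of all 27023 probe sets (0%), and 1 of 16 had an unadjusted p under 0.05, against 1.3%. That probe set was 1450019_at of Cx3cr1. With the block 0 of 16 were called, against 0.0037%, and 3 of 16 were higher at an unadjusted p under 0.05, against 2.58%. Both A-CREB arrays stood above both WT arrays for 5 of 16, of Aif1, Laptm5, Cx3cr1, Tyrobp and Cd68, against 10% of all probe sets.

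After 14 mg/kg the median difference was 0.49 and 15 of 16 lay above 0, against 50.8% of all probe sets. Limma called 0 of 16, again with 0% of all probe sets called, and 5 of 16 had an unadjusted p under 0.05, against 1.04%. With the block 0 of 16 were called, against 0.0037%, and 9 of 16 were higher at an unadjusted p under 0.05, against 2.45%. Both A-CREB arrays stood above both WT arrays for 9 of 16, against 11% of all probe sets. They were of Aif1, Csf1r, Trem2, Laptm5, Fcrls, C1qa and Cd68. Over saline and 14 mg/kg together, all 4 A-CREB arrays stood above all 4 WT arrays for 2 of 16, of Aif1 and Cd68, against 0.799%.

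Among the surface receptors, Csf1r had 3 probe sets. By the brightest, 1419872_at, its signal after saline was 4428 and 6030 in A-CREB arrays, against 4537 and 6070 in WT arrays. After 14 mg/kg it was 6006 and 6001 in A-CREB arrays, against 4172 and 4253 in WT arrays, and after 18 mg/kg it was 5746 and 7274 in A-CREB arrays. The genotypes overlapped after saline and stood apart after 14 mg/kg. The difference after 14 mg/kg was 0.51 (SE 0.21, n = 2 arrays per group, limma adjusted p = 1.0). The probe set 1419873_s_at gave 1850 and 1660 in A-CREB arrays after 14 mg/kg, against 1170 and 1099 in WT arrays, a difference of 0.62 (SE 0.19, limma adjusted p = 1.0). The third, 1423593_a_at, gave 1799 and 1080 in A-CREB arrays, against 1135 and 1134 in WT arrays, so that its groups overlapped.

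P2ry12 had 1 probe set, with 1069 and 1112 in A-CREB arrays after saline, against 1162 and 737 in WT arrays. At 14 mg/kg kainate, P2ry12 had 1456 and 1193 in A-CREB arrays, against 1196 and 726 in WT arrays, and after 18 mg/kg 1764 and 1260 in A-CREB arrays. Signals were higher on replicate 1 than on replicate 2 except in A-CREB saline, and after 14 mg/kg the lower A-CREB array was just under the higher WT array. The averaged difference of P2ry12 was 0.36 (SE 0.21, limma adjusted p = 1.0), and 0.18 without WT 14 mg/kg replicate 2 or 0.20 without WT saline replicate 2.

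Cx3cr1 was read by 2 probe sets that differed in size of difference. The brighter, 1450020_at, had 963 and 1310 in A-CREB arrays after saline, against 830 and 1174 in WT arrays, and 1002 and 1015 in A-CREB arrays after 14 mg/kg, against 711 and 1222 in WT arrays. Its genotypes overlapped under both treatments, with an averaged difference of 0.15 (SE 0.23). Leaving out 1 array moved this Cx3cr1 difference from -0.04 (without WT 14 mg/kg replicate 1) to 0.34 (without WT 14 mg/kg replicate 2). It was 0.02 without WT saline replicate 1, 0.27 without WT saline replicate 2, 0.25 without A-CREB saline replicate 1 and 0.04 without A-CREB saline replicate 2. The replicate 1 minus replicate 2 difference of 1450020_at was -0.47 ± 0.29 (SD, n = 5 groups), and leaving out 1 array unbalances these numbers. Its paired genotype differences were 0.21 and 0.16 after saline, and 0.48 and -0.26 after 14 mg/kg. The other, 1450019_at, had 442 and 494 in A-CREB arrays after saline, against 317 and 178 in WT arrays. After 14 mg/kg it had 317 and 409 in A-CREB arrays, against 245 and 397 in WT arrays, so that the genotypes overlapped there. Its averaged difference was 0.55 (SE 0.25, limma adjusted p = 1.0). Without WT saline replicate 2, the lowest array, that difference was 0.36.

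Fcrls, an Fc receptor-like scavenger receptor that marks mouse microglia, had 972 and 943 in A-CREB arrays after saline, against 978 and 808 in WT arrays. In the 14 mg/kg groups Fcrls had 1385 and 951 in A-CREB arrays, against 842 and 777 in WT arrays, and after 18 mg/kg 1325 and 1312 in A-CREB arrays. The genotypes overlapped after saline and stood apart after 14 mg/kg, with a difference there of 0.49 (SE 0.21, limma adjusted p = 1.0). For Fcrls it was 0.23 without A-CREB 14 mg/kg replicate 1 and 0.76 without A-CREB 14 mg/kg replicate 2.

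Trem2 had the highest averaged difference of the members, and it rested on few arrays. Its probe set 1421792_s_at had 243 and 328 in A-CREB arrays after saline, against 251 and 26.3 in WT arrays. With 14 mg/kg, Trem2 had 517 and 244 in A-CREB arrays, against 167 and 129 in WT arrays, and after 18 mg/kg 462 and 376 in A-CREB arrays. WT saline replicate 2 was far below every other array, near the value of 22 added before the log, and the groups stood apart only after 14 mg/kg. The averaged difference was 1.29, a fold of 2.44 (SE 0.48, limma adjusted p = 1.0), and 0.66 without WT saline replicate 2. The dim probe set 1421226_at, between 5.1 and 83.3 on all arrays, was not tested.

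Tyrobp, the adaptor that Trem2 signals through, had 1079 and 1485 in A-CREB arrays after saline, against 1005 and 787 in WT arrays. For 14 mg/kg, Tyrobp had 1755 and 1233 in A-CREB arrays, against 903 and 1353 in WT arrays, and after 18 mg/kg 1364 and 1636 in A-CREB arrays. The genotypes stood apart after saline and overlapped after 14 mg/kg, but the Tyrobp difference was of like size under both. It was 0.50 (SE 0.27) after saline and 0.41 (SE 0.27) after 14 mg/kg. The averaged difference of Tyrobp was 0.45 (SE 0.19, limma adjusted p = 1.0).

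Aif1, which encodes the calcium-binding, actin-bundling protein IBA1 used to stain microglia, had 251 and 245 in A-CREB arrays after saline, against 242 and 180 in WT arrays. Under 14 mg/kg kainate Aif1 had 459 and 267 in A-CREB arrays, against 205 and 149 in WT arrays, and after 18 mg/kg 396 and 343 in A-CREB arrays. Every A-CREB array stood above every WT array, with a small margin between A-CREB saline replicate 2 and WT saline replicate 1. The averaged difference was 0.57, a fold of 1.49 (SE 0.21, limma adjusted p = 1.0, and 0.714 as adjusted p with the replicate block).

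C1qa, the A chain of complement C1q, had 2628 and 2380 in A-CREB arrays after saline, against 2416 and 1580 in WT arrays. Following 14 mg/kg, C1qa had 4091 and 2287 in A-CREB arrays, against 1894 and 2209 in WT arrays, and after 18 mg/kg 2624 and 2812 in A-CREB arrays. The genotypes overlapped after saline and stood narrowly apart after 14 mg/kg (2287 against 2209), where A-CREB replicate 1 was well above every other array. The C1qa difference at that dose was 0.58 (SE 0.28), and 0.16 without A-CREB 14 mg/kg replicate 1. The averaged difference of C1qa was 0.46 (SE 0.20, limma adjusted p = 1.0), and 0.26 without that array.

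Cd68, a lysosomal glycoprotein of phagocytes, had 404 and 512 in A-CREB arrays after saline, against 374 and 353 in WT arrays. Kainate at 14 mg/kg gave Cd68 569 and 438 in A-CREB arrays, against 322 and 381 in WT arrays, and after 18 mg/kg 516 and 471 in A-CREB arrays. No A-CREB array overlapped the WT arrays under any treatment, and the averaged difference was 0.40, a fold of 1.32 (SE 0.16, limma adjusted p = 1.0).

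Laptm5, a lysosomal membrane protein of blood and microglial cells, had 5 probe sets that disagreed. The brightest, 1436905_x_at, had 734 and 1053 in A-CREB arrays after saline, against 720 and 1004 in WT arrays, and 1197 and 854 in A-CREB arrays after 14 mg/kg, against 699 and 569 in WT arrays. Its averaged difference was 0.36 (SE 0.19), and those of 1426025_s_at and 1417721_s_at were 0.28 (SE 0.21) and 0.41 (SE 0.26), all with limma adjusted p = 1.0. The difference of 1436905_x_at was 0.24 without A-CREB 14 mg/kg replicate 1 and 0.23 without A-CREB saline replicate 2. Leaving out replicate 1 of A-CREB saline gave 0.13 for 1426025_s_at, and leaving out replicate 2 of that group gave 0.43. For 1417721_s_at it was 0.26 without A-CREB 14 mg/kg replicate 2 and 0.22 without WT 14 mg/kg replicate 1. The probe set 1447742_at was at -0.25 (SE 0.66), the 1 probe set below 0 of the 16 tested. Its signal followed the replicate number, with 50.1 in A-CREB saline replicate 1 and 256 in replicate 2, and 83.5 in WT saline replicate 1 and 355 in replicate 2. Over the 5 groups its replicate 1 minus replicate 2 difference was -1.72 ± 0.36 (SD, n = 5), the widest such gap of the 16. Its averaged difference ran from -0.78 without WT 14 mg/kg replicate 1 to 0.28 without WT 14 mg/kg replicate 2, and was also above 0 without A-CREB 14 mg/kg replicate 1 (0.10), A-CREB saline replicate 1 (0.24) or WT saline replicate 2 (0.21). These values come from the fit without the block, where leaving out 1 array unbalances the replicate numbers and lets that gap into the difference. In pairs of the same number it was -0.55 and -0.44 after saline, and 0.37 and -0.38 after 14 mg/kg.

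**Figure D2:**
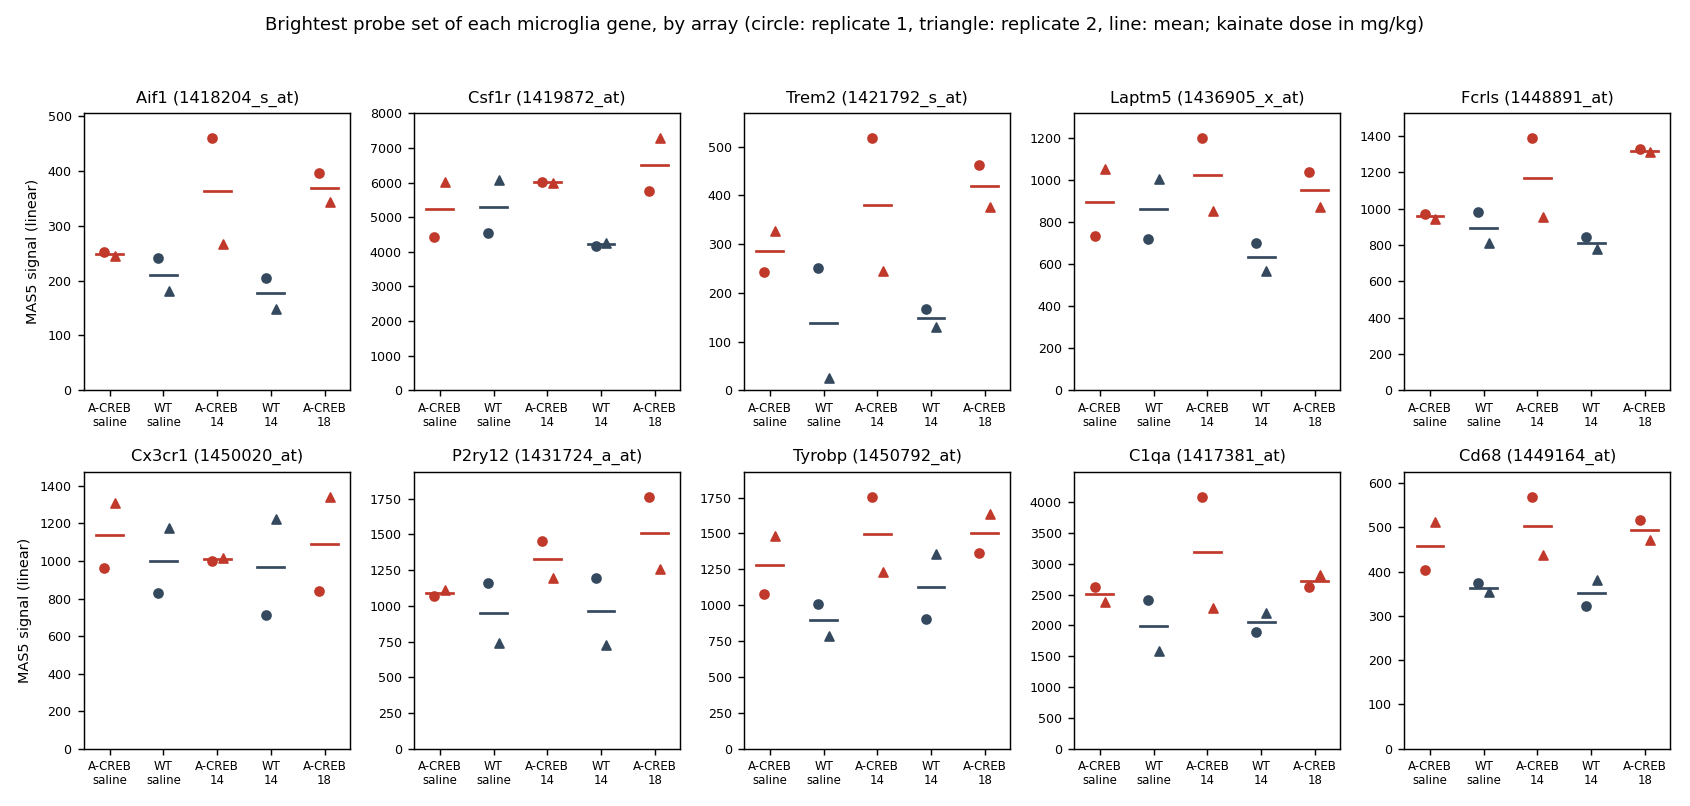
MAS5 signal (linear, from 0) of the brightest probe set of each gene on the 10 arrays; red is A-CREB and dark blue WT, a circle is replicate 1, a triangle replicate 2 and a line the mean of 2 arrays. Aif1 and Cd68 have every A-CREB array above every WT array, while Cx3cr1 by its brightest probe set overlaps under saline and 14 mg/kg.

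Summed over the brightest probe sets of the 10 genes, the signal was 12770 and 15398 in A-CREB arrays after saline, against 12516 and 12719 in WT arrays. After 14 mg/kg the sum was 18439 and 14482 in A-CREB arrays, against 11110 and 11768 in WT arrays, and after 18 mg/kg it was 16070 and 17697 in A-CREB arrays. The A-CREB arrays did not overlap the WT arrays in either treatment, though the lowest A-CREB sum and the highest WT sum were close. A sum of linear signals weighs bright genes most, and Csf1r gave 6070 of the 12719 in WT saline replicate 2.

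The kainate comparisons set the members of each genotype against saline, and limma called 0 of 16 in each. The A-CREB comparisons at 14 and 18 mg/kg share their saline arrays. Limma called 0.174% of all probe sets in A-CREB at 14 mg/kg, 0.0703% at 18 mg/kg and 0.0629% in WT at 14 mg/kg. At an unadjusted p under 0.05 the members counted 0 of 16, 0 of 16 and 1 of 16 in that order, against 3.83%, 2.48% and 2.7% of all probe sets, and with the block 0 of 16 were called in each, against 0.729%, 0.359% and 0.337%. Higher than saline at an unadjusted p under 0.05 with the block were 0 of 16 in A-CREB at 14 mg/kg, against 4.37%, 4 of 16 at 18 mg/kg, against 4.15%, and 0 of 16 in WT, against 3.48%.

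In A-CREB the median difference over the 16 probe sets was 0.20 at 14 mg/kg, with 12 above 0, against 45.7% of all probe sets, and 0.12 at 18 mg/kg, with 12 above 0, against 49.7%. By the brightest probe set of each gene the median at 18 mg/kg was 0.28, with 9 of 10 genes above 0. The value at 14 mg/kg depended on 2 arrays. Without A-CREB 14 mg/kg replicate 1 the median was -0.04 and 5 of 16 lay above 0, and without A-CREB saline replicate 1 the median was 0.04 and 8 of 16 lay above 0. At 18 mg/kg, leaving out replicate 1 of A-CREB saline gave 0.05, leaving out replicate 2 of that group gave 0.32, and leaving out replicate 1 of the 18 mg/kg group gave 0.24. Both 14 mg/kg arrays stood above both A-CREB saline arrays for 2 of 16, of Aif1 and P2ry12, against 12.5% of all probe sets. At 18 mg/kg this held for 4 of 16, of Aif1, Trem2, Fcrls and P2ry12, also against 12.5%.

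In WT the median was -0.08 at 14 mg/kg, with 6 of 16 above 0, against 43.7% of all probe sets. It was -0.22 without WT kainate replicate 2, -0.21 without WT saline replicate 2 and -0.05 without WT saline replicate 1. Both kainate arrays stood below both saline arrays for 5 of 16, against 14.6% of all probe sets, and these were all 3 probe sets of Csf1r and 2 of Laptm5. Csf1r by 1419873_s_at was at -0.51 (SE 0.19, limma adjusted p = 1.0). No member probe set had both kainate arrays above both saline arrays in WT (0 of 16, against 9.28%).

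The kainate response in A-CREB less that in WT had a median of 0.26 over the members, with 11 of 16 above 0, against 50.4% of all probe sets. Limma called 0 of 16 and 0% of all probe sets, with 0 of 16 at an unadjusted p under 0.05, against 0.588%, and with the block 0 of 16 and 0%. With the block, 3 of 16 were above 0 at an unadjusted p under 0.05, against 1.87%. The median was 0.06 without A-CREB 14 mg/kg replicate 1, 0.16 without WT saline replicate 1 and 0.46 without A-CREB 14 mg/kg replicate 2.

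**Figure D3:**
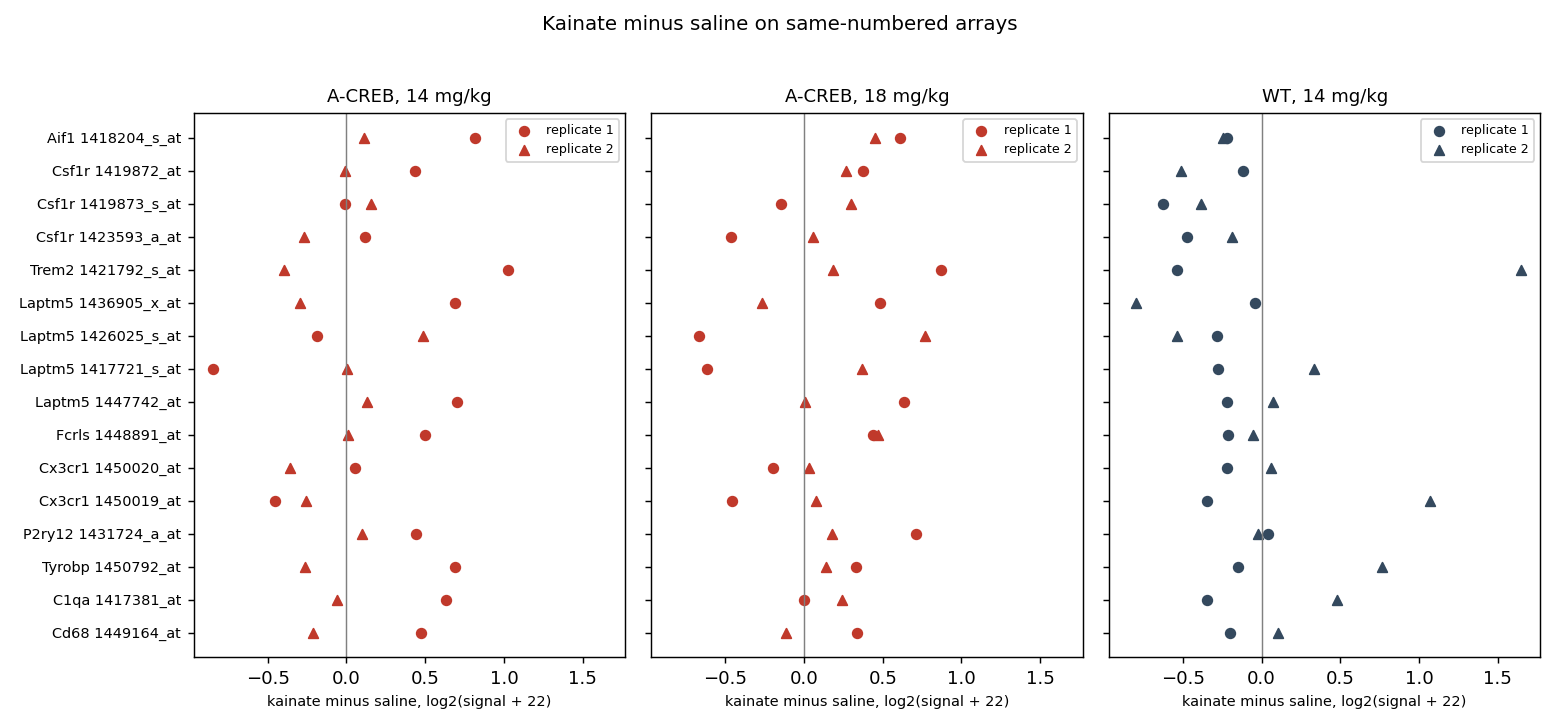
Kainate minus saline in log2(signal + 22) for the 16 member probe sets, on arrays of the same replicate number (circle: replicate 1, triangle: replicate 2), in A-CREB at 14 and 18 mg/kg and in WT at 14 mg/kg. In A-CREB at 14 mg/kg replicate 1 lies mainly to the right of replicate 2; in WT all 3 Csf1r probe sets lie left of 0.

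The A-CREB arrays at 18 mg/kg, which have no WT group of that dose, stood above all 4 WT arrays of saline and 14 mg/kg for 7 of 16 probe sets, against 4.64% of all probe sets. These were of Aif1, Trem2, Fcrls, P2ry12, Tyrobp, C1qa and Cd68. Dose and genotype differ together in this count.

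The members varied together over the arrays. With each replicate number centred on its own mean, the Pearson r between brightest probe sets of 2 members ran from 0.06 to 0.97 with a median of 0.75 over 45 pairs of genes and 10 arrays, which share pool, scaling and hybridisation. Aif1 and Cd68 followed the mean of the other members most closely (r = 0.94 each), and Cx3cr1 (r = 0.49) and Laptm5 (r = 0.58) least. The 8 other genes most like the mean of the members were Ly86 (r = 0.97), Plek, Kcnk6, B2m and Ctsc (r = 0.96 each), and Cd53, Fcgr1 and Cd84 (r = 0.95 each), of 13219 genes and over 10 arrays. Ly86, a partner of the Toll-like receptor CD180, had 1138 and 1128 in A-CREB arrays after saline, against 934 and 667 in WT arrays. At 14 mg/kg Ly86 had 1687 and 1217 in A-CREB arrays, against 808 and 763 in WT arrays. No A-CREB array overlapped the WT arrays. The 8 genes were picked for following the members' mean over these same arrays, and that mean was itself higher in A-CREB. Their genotype difference, here or in the lists below, is therefore not separate support.

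Other microglia genes lay in the same direction. Of 24 listed, 22 were measured, and 21 of these 22 were above 0 in the averaged genotype difference, with a median of 0.28 by brightest probe set, 10 higher in 4 of 4 pairs. Limma called 0, and 7 were higher at an unadjusted p under 0.05. For the averaged counts here and in the lists below, 49.4% of all probe sets tested were above 0. Higher in 4 of 4 pairs were 7.4% and lower 7.67%, and 1.76% had an unadjusted limma p under 0.05 in either direction. These shares are per probe set, whereas the list counts are per gene by its brightest probe set. Ly86 was at 0.68 (SE 0.16), Cd53, a tetraspanin of leukocytes, at 0.47 (SE 0.14), and Ptprc, the leukocyte phosphatase CD45, at 0.62 (SE 0.20), each with a limma adjusted p of 1.0. With the block, the adjusted p of Ly86 was 0.203. Named after their values were seen, Tmem119 (0.08), Sall1 (0.07), P2ry13 (0.00) and Itgam (-0.02) were near 0.

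Among genes linked to microglial activation 12 of 15 measured were above 0, with a median of 0.22 and 4 higher in 4 of 4 pairs. Limma called 0, and 3 were higher at an unadjusted p under 0.05. Cst7, a cystatin that inhibits lysosomal proteases, was at 1.61 (SE 0.42), Clec7a, the fungal-glucan receptor dectin-1, at 1.19 (SE 0.27), and B2m, the light chain of MHC class I, at 0.49 (SE 0.14). Each of the 3 was higher in 4 of 4 pairs, with a limma adjusted p of 1.0 and with the block 0.502 for Cst7, 0.306 for Clec7a and 0.605 for B2m. Of the complement genes 6 of 8 measured were above 0 (median 0.27, 0 called by limma, 2 higher at an unadjusted p under 0.05), with C1qb at 0.48 (SE 0.21), C1qc at 0.45 (SE 0.22) and the receptor gene C3ar1 at 0.58 (SE 0.25). Of the phagosome and lysosome genes 10 of 14 were above 0 (median 0.08, 0 called by limma, 3 higher at an unadjusted p under 0.05), with Ctss, cathepsin S, at 0.49 (SE 0.21), Grn, progranulin, at 0.36 (SE 0.14) and Lamp2 at 0.27 (SE 0.11). C1qb, C1qc, Itgam and Ctss also stand in the list of other microglia genes, so these lists are not independent.

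The partners of the receptors were closer to 0. Of 10 measured genes of TYROBP signalling 5 were above 0 (median -0.01 by brightest probe set and 0.02 over all 20 probe sets, 0 called by limma or at an unadjusted p under 0.05), with the adaptor Blnk at 0.47 (SE 0.21), the inhibitory receptor Sirpa at -0.17 (SE 0.13) and the kinase Syk at 0.27 (SE 0.34). Of 8 ligands and neuronal signals to microglia 4 were above 0 (median 0.02, 0 called by limma or at an unadjusted p under 0.05). Cd200 was at 0.26 (SE 0.14), Cd47 at 0.23 (SE 0.13) and Cx3cl1, the fractalkine gene, at -0.20 (SE 0.17).

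**Figure D4:**
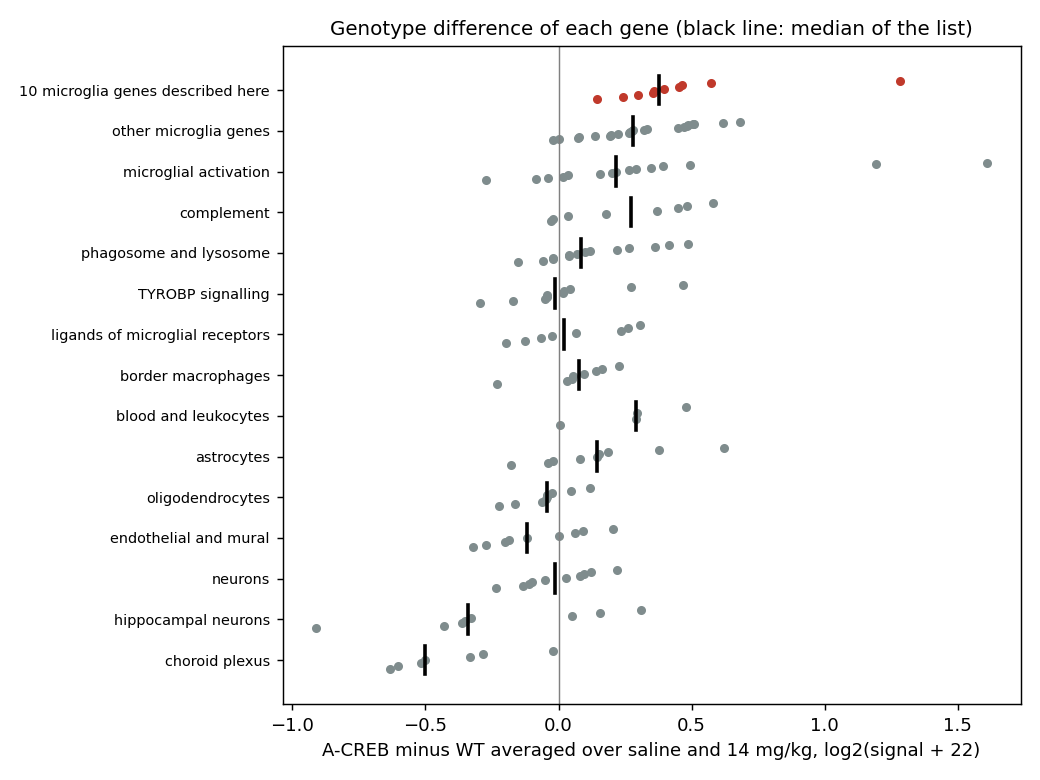
Each point is a gene by its brightest probe set, placed by its A-CREB minus WT difference averaged over saline and 14 mg/kg, in log2(signal + 22); black lines are medians of the lists. The 10 microglia genes (red) all lie above 0 with a median of 0.38, and the choroid plexus markers all lie below 0 with a median of -0.50, most of it from saline.

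Markers of other cells were read the same way, and limma called 0 in any of their lists, with the block too. At an unadjusted p under 0.05 there were 2 astrocyte markers higher, and 2 hippocampal neuron, 2 choroid plexus and 1 endothelial or mural marker lower. Border macrophages share many microglial genes, and all 8 of their markers were measured, with none dim; their summed signal was 1029 to 1113 in A-CREB and 1007 to 1467 in WT arrays after saline. After 14 mg/kg that sum was 1523 to 1547 in A-CREB and 1202 to 1235 in WT arrays, and after 18 mg/kg 1458 to 1621 in A-CREB arrays. The median difference of the border macrophage markers was -0.17 after saline, with 1 of 8 above 0, and 0.36 after 14 mg/kg, with 6 of 8 above 0. Averaged over both it was 0.08, with F13a1 at 0.16 (SE 0.19), Cbr2 at -0.23 (SE 0.29) and Lyve1 at 0.23 (SE 0.33). Of 8 blood and leukocyte markers with a probe set, 4 were dim, among them the T cell gene Cd3e, the B cell gene Cd79a and the monocyte receptor gene Ccr2. The blood sum was 918 to 2005 in A-CREB and 604 to 1357 in WT arrays after saline. After 14 mg/kg it was 915 to 1084 in A-CREB and 707 to 1226 in WT arrays, and after 18 mg/kg 1079 to 1084 in A-CREB arrays. The 4 blood and leukocyte markers that passed the filter had a median averaged difference of 0.29. Of these, 4 of 4 were above 0, and 0 were higher in 4 of 4 pairs. Their median was 0.18 after saline and 0.21 after 14 mg/kg, with 3 of 4 above 0 at that dose. Their part in the members' difference was not tested.

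Astrocyte markers had a median of 0.14 over 9 genes by brightest probe set, with 6 of 9 above 0, and of 0.22 over all 27 probe sets. Gfap, an intermediate filament of reactive astrocytes, was at 0.62 (SE 0.23) and Aqp4, a water channel, at 0.38 (SE 0.14), both higher in 4 of 4 pairs, and the lowest, Aldh1l1, was at -0.18 (SE 0.20). Hippocampal neuron markers had a median of -0.34 over 8 genes by brightest probe set, with 3 of 8 above 0, but of -0.00 over all 21 probe sets of these genes, so the value depended on the choice of probe set. C1ql2, a secreted protein of dentate granule cells, was at -0.91 (SE 0.15), Wfs1 at -0.36 (SE 0.16) and Pou3f1 at -0.33 (SE 0.15), each lower in 4 of 4 pairs. The C1ql2 average came mostly from kainate arrays, with pairs of -0.07 and -0.61 after saline, and -1.54 and -1.42 after 14 mg/kg. Prox1, a transcription factor of dentate granule cells, was at 0.31 (SE 0.30) and Neurod6 at 0.16 (SE 0.15). Aldh1l1, Prox1 and Neurod6 were named after their values were seen.

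Choroid plexus markers had a median of -0.94 after saline and -0.07 after 14 mg/kg. Averaged over both it was -0.50 over 7 genes, with 0 of 7 above 0, and -0.33 over all 11 probe sets. Folr1 was at -0.60 (SE 0.20) and Slc4a5 at -0.63 (SE 0.28), with -1.49 and -1.95 in saline pair 2. Neurons in general were at -0.01 over 10 genes and oligodendrocytes at -0.04 over 9. Endothelial and mural cells were at -0.12 over 9 genes, but at 0.04 over all 15 probe sets, and neurons at 0.03 over 23 probe sets, so that both turned direction with the choice of probe set. Their part in the members' difference was not tested either. Creb1, whose product A-CREB blocks, was read by 5 tested probe sets, of which 1452529_a_at was at 0.93 (SE 0.31) and 1423402_at at 0.66 (SE 0.22), both higher in 4 of 4 pairs with a limma adjusted p of 1.0, and the other three were between -0.03 and 0.11. No probe set of the table is annotated to the transgene, so its level was not analysed here. Array probe sequences were not available, and whether any Creb1 probe set also reads the transgene transcript was not tested.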

How the data were processed

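Hippocampal RNA of 10 pools in 5 groups of 2 was measured on Affymetrix mouse expression arrays. The deposited values are intensity, as MAS5 signals per probe set, made with MAS5 and GCOS per the submitters' processing notes, with versions and background settings not given in the sources used here. Detection calls were not used. Checked on the values, each array had been scaled to a 2% trimmed mean of about 500.

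After dropping 64 controls of 45101 probe sets, the platform annotation gave 1 gene for 34945, several for 932 and none for 9160. Signals were taken as log2(signal + 22), 22 being the 20th percentile of all signals. Probe sets in the upper 60% by mean were tested. All arrays were fitted with limma 3.58.1 in R 4.3.3 (intensity trend, 5 residual degrees of freedom), two-sided, adjusted within each of 7 comparisons. Members, lists and tests were chosen with earlier results of these data known. Genes named beyond the members are the 3 of each list with the smallest p, the 8 most alike and Creb1, with exceptions marked; of some lists fewer are named.

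Replicate numbers paired the arrays: same-numbered arrays deviated together in all 10 pairs of groups (r from 0.51 to 0.63), so the block (4 residual degrees of freedom) was fitted as an alternative. What a number stands for is unstated in the labels.  On simulated data of the averaged genotype comparison, with 200 of 27023 probe sets changed in each of 5 runs, 26.6% of changes of size 1 (log2) and 64.8% of those of size 2 were found, at 0.6 false calls a run. The block raised these to 57.6%, 90.0% and 6.4. No share was obtained for smaller changes, such as the members' median of 0.36. Slide, scan and background correction could not be varied from these values.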

Additional observations from a re-analysis of the deposited data

Results flagged for a closer look

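Csf1r by 1419872_at was marked because its genotype difference pointed opposite ways under the treatments in every pair: -0.03 and -0.01 in the saline pairs and 0.52 and 0.49 in the 14 mg/kg pairs. The kainate response in A-CREB less that in WT was 0.53 (SE 0.30, limma adjusted p = 1.0, and adjusted p = 1.0 with the replicate block), so the difference did not pass its test. The saline differences are close to 0, and the other Csf1r probe sets did not show this pattern. The pairs of 1419873_s_at were 0.04 and 0.04 after saline, and 0.65 and 0.59 after 14 mg/kg. Those of 1423593_a_at were 0.06 and 0.01 after saline, and 0.65 and -0.07 after 14 mg/kg.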

How the results depend on the processing

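Under a pseudocount of 5.5 or 88, no filter, the upper 40%, quantile normalization, 1 probe set per gene, a replicate block or 1 array fewer, 0 member probe sets were called in each of the 7 comparisons. Counts over all probe sets moved more. With the replicate block they were 1 after saline, 1 after 14 mg/kg, 2 averaged, 197 for kainate 14 mg/kg in A-CREB, 97 for 18 mg/kg in A-CREB and 91 in WT, against 0, 0, 1, 47, 19 and 17 without it. Quantile normalization gave 1 after saline and 10 for kainate in WT, the upper 40% gave 0 averaged, no filter gave 12 for 18 mg/kg, and 1 probe set per gene gave 0 averaged and 32 for 18 mg/kg. With 1 probe set per gene the members' median at 18 mg/kg was 0.28, and 7 of 10 genes lay above 0 in the difference of responses, against 11 of 16 probe sets. The counts of members above 0 under the alternatives were added after seeing the data.

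Leaving out 1 array at a time, the members' median ran from 0.29 to 0.43 averaged (14 to 16 above 0), 0.18 to 0.29 after saline (11 to 13), 0.40 to 0.66 after 14 mg/kg (12 to 16), 0.06 to 0.46 for the difference of responses (9 to 13), -0.04 to 0.30 for kainate 14 mg/kg in A-CREB (5 to 12), 0.054 to 0.32 for 18 mg/kg (10 to 14) and -0.22 to -0.05 in WT (4 to 8). The calls over all probe sets ran from 0 to 1 averaged, from 2 to 61 and 2 to 49 for 14 and 18 mg/kg in A-CREB and from 3 to 38 in WT, and were 0 to 0 in the other three.  The averaged difference of Trem2 was 0.66 without WT saline replicate 2, 1.91 without WT saline replicate 1, 1.46 with a pseudocount of 5.5 and 0.92 with 88. Leave-one-out values come from the fit without the block, so a group that loses 1 array keeps a single replicate number. The difference between replicate numbers then enters the comparison, besides the smaller number of arrays. The cause of these moves was not tested further. With 2 pools per group and no detection calls, differences in dim probe sets such as those of Trem2 are the least precise.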
